A study of Mus musculus with 21 samples.

Results

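The comparison covers the start and the end of mouse preimplantation development at the level of RNA: 2 short-read libraries of oocytes against 2 short-read libraries of blastocysts, chosen by their stage labels, 4 of the 21 samples of the series. The whole holds 14 short-read libraries, 2 for each of 7 stages (sperm, the oocyte and the embryo at 5 times up to the blastocyst), and 1 long-read pool per stage. The 2 long-read pools of oocyte and blastocyst were used for the exon structures of transcripts. The oocytes were metaphase II oocytes of C57/BL6J females, lysed 20 h after hCG. The blastocysts came from the cross ♂DBA/2J x ♀C57/BL6J (the protocol writes the males as DBA/2N), were taken from the oviduct after mating, grown in KSOM medium and lysed at 94 to 96 h after hCG. Both groups share females of 3 to 5 weeks of age, superovulated with 7.5 IU of PMSG and then 7.5 IU of hCG, and cDNA amplified from pooled oocytes or embryos by Smart-seq2, a method that copies polyadenylated RNA along its length without keeping its strand. The embryos thus differ from the oocytes in paternal genome, time in culture and stage together, and these cannot be told apart.

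A metaphase II oocyte does not transcribe. Its RNA was made during growth in the ovary, and much of it is stored with a short poly(A) tail, so that an oligo(dT)-primed library reads both the amount and the tail of such an RNA. After fertilization the maternal RNA is degraded and the zygotic genome is activated, in the mouse mainly at the 2-cell stage. By the blastocyst the embryo has an outer epithelium, the trophectoderm, which pumps fluid into the blastocoel, and an inner cell mass that gives rise to the epiblast and the primitive endoderm. In pooled samples, fewer cells of a type and less RNA per cell cannot be told apart, and nor can a change of amount and a change of tail.

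The unit is TPM (transcripts of 1 kind among all, each counted per length and scaled to a fixed total) over 22612 merged long-read transcripts, summed here over 14890 genes and loci. The total is the same in each library, the number of reads behind a value is unknown, and no counting interval can be given. At a TPM of 1 or more, 8861 and 8173 genes were seen in oocyte replicates 1 and 2, and 10911 and 9449 in blastocyst replicates 1 and 2. The 10 most abundant genes took 18.1% and 21.5% of all TPM in the oocyte libraries and 9.70% and 15.2% in the blastocyst libraries. On log2(TPM + 1), Pearson's r over the 11660 tested genes was 0.84 between the oocyte libraries, 0.86 between the blastocyst libraries and 0.11 to 0.27 across the stages. The r values describe genes, which are not independent replicates. Nothing in the labels says more about how the replicates were collected. The p-values of genes measure a spread between replicate libraries that is shared over the 12 libraries from oocyte to blastocyst. Those of isoform shares measure the spread within the 4 libraries. The median gap between replicates was 0.825 log2 units in oocytes and 0.986 in blastocysts. At the stages between it ran from 0.289 (4-cell) to 1.48 (2-cell), so the shared spread is not that of the 2 end stages alone.

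The stage labels were compared with marker genes. The 9 oocyte markers, genes of the zona pellucida, of the oocyte growth factors and of the maternal cytoplasm, summed to 5408 and 16794 TPM in the oocyte libraries and to 83.7 and 55.2 TPM in the blastocyst libraries. Gdf9 held most of the oocyte sums, with 4176 and 15568 TPM, and Ooep most of the blastocyst sums. Of the 9, 8 were called lower, and Ooep was not called. Of the 7 trophectoderm markers, 6 had a merged transcript (Eomes had none) and their sum went the other way, from 44.3 and 263 TPM to 10837 and 37618 TPM. Krt18 and Krt8 held most of these blastocyst sums. Markers of the inner cell mass summed to 46.6 and 117 TPM in oocytes and 681 and 359 TPM in blastocysts, and those of the primitive endoderm to 21.4 and 42.9 TPM and then 448 and 195 TPM, with no transcript for Fgf4 or Pdgfra. Of 10 cumulus and granulosa markers only Ptgs2 had a transcript, at or under 0.146 TPM in the 4 libraries. The 7 sperm markers summed to between 2.87 and 6.92 TPM. Blastocyst replicate 1 held more RNA of oocyte genes than replicate 2: Gdf9 was at 11.9 TPM against 0.0965 TPM, and Bcl2l10 at 14.4 TPM against 0.0917 TPM.

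At an adjusted p under 0.05 (limma on log2(TPM + 1), Benjamini-Hochberg over all tested genes), 4085 genes were higher in blastocysts, 35.0% of the 11660 tested, and 2285 were lower, 19.6%. The calls together made up 54.6%, and the remaining 5290 genes were not called. The median log2 difference, blastocyst minus oocyte, was +1.04 over all tested genes, so a gene that kept its place among the others rose by about that much. When each library was centred on its median the calls became 2792 higher (23.9% of the tested genes) and 3513 lower (30.1%), so that 44.3% of the calls were higher, against 64.1% without centring, and after quantile normalization 3217 higher and 3219 lower. No gene called in one direction was called in the other under any alternative. The values of the oocyte and blastocyst libraries did not overlap in 75.4% of the tested genes. Differences of at least 16-fold on this scale were called for 1530 genes in the higher direction and 802 in the lower, and of at least 256-fold for 72 and 65. Because 1 TPM is added before the logarithm, the change of a gene at a low level is understated.

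Part of the contrast ran between levels under 1 TPM and levels of 10 TPM or more. In 772 genes both oocyte libraries were under 1 TPM and both blastocyst libraries at 10 TPM or more, and in 385 genes the reverse was seen. These are set beside 11660 genes tested and 6370 called. As tail length also enters the reading, a level under 1 TPM does not show that an RNA was absent. The 15 called genes with the largest falls together held 146658 and 193737 TPM of the oocyte libraries and 138 and 13.0 TPM of the blastocyst libraries. The 15 with the largest rises went from 13.8 and 11.6 TPM to 54907 and 58932 TPM. In the plot of gene levels the zona and maternal effect genes lie along the lower edge, and the ribosomal protein and trophectoderm genes along the upper left.

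**Figure D1:**
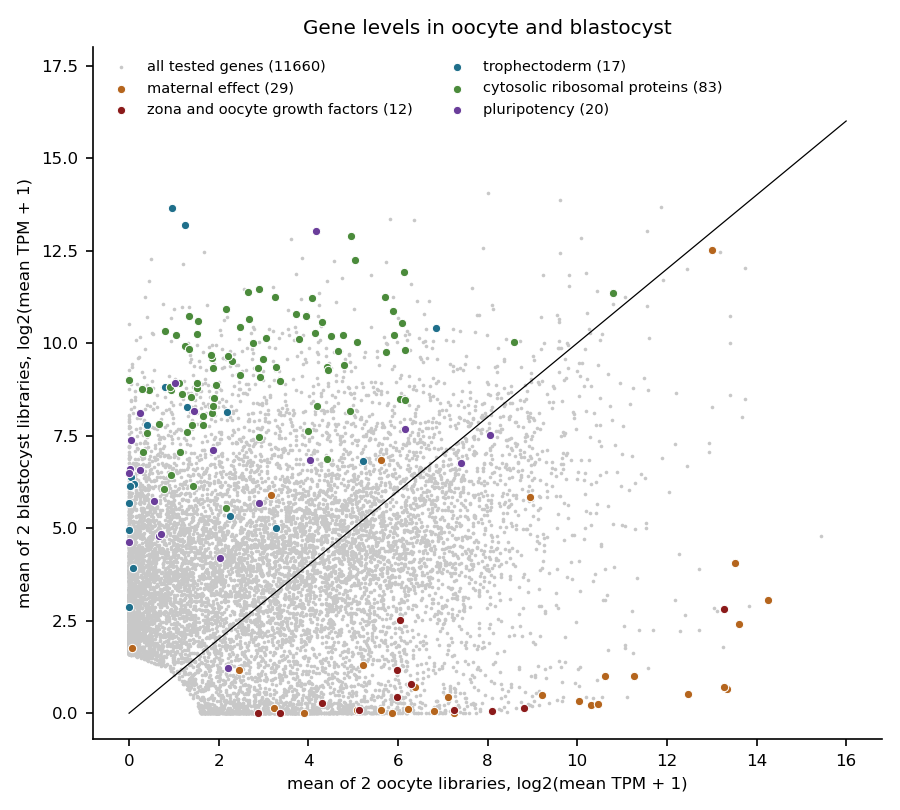
Gene levels as log2(mean TPM + 1) in the 2 oocyte libraries (x axis) and the 2 blastocyst libraries (y axis). Each grey point is 1 of 11660 tested genes, coloured points are members of 5 gene lists, and the line marks equal levels. All 12 tested zona and growth factor genes lie below the line, while 79 of 83 cytosolic ribosomal protein genes were called higher.

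Genes of the growing oocyte were nearly gone by the blastocyst. All 12 tested genes of the zona pellucida, the oocyte-secreted factors and the transcription factors of oocyte growth fell, against 19.6% of all genes, with a median log2 difference of -5.03. The shares over all genes, 35.0% higher and 19.6% lower, stand beside the counts of every list below. Gdf9, a growth factor that oocytes secrete to the surrounding follicle cells, stood at 4176 and 15568 TPM in the oocyte libraries and 11.9 and 0.0965 TPM in the blastocyst libraries, a log2 difference of -11.06 ± 1.34 (SE, adjusted p = 2.79e-05). Its partner Bmp15 went from 141 and 159.9 TPM to 0.113 and 0 TPM. The stages do not overlap for either factor. Zp1, Zp2 and Zp3, the structural proteins of the zona pellucida, fell by 4.78, 3.93 and 5.44 on the log2 scale, from levels of 11.2 to 102 TPM to at most 0.989 TPM. Oosp1, a secreted oocyte protein, fell by 8.53 on the log2 scale, and Kit, the receptor for the growth signal from granulosa cells, by 4.78. Nobox, Lhx8 and Sohlh2, transcription factors of early folliculogenesis, fell by 2.89, 5.28 and 3.32. The call of Sohlh2 was lost without oocyte replicate 2 (adjusted p = 0.111) and without blastocyst replicate 1 or 2 (adjusted p = 0.0641 and 0.0520), and that of Kit when only multi-exon transcripts were counted (adjusted p = 0.0680).

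The subcortical maternal complex, a protein assembly under the oocyte membrane that is needed for the first cleavages, did not move as 1 group. Of 8 genes, 6 fell, 1 rose and 1 was not called (median -4.05). Nlrp5 was at 54.2 and 58 TPM in oocytes and 0.329 and 0.13 TPM in blastocysts, and Tle6 at 19.9 and 100.4 TPM and 2.0 and 1.31 TPM. Padi6, which is required for the cytoplasmic lattices, fell by 3.96 on the log2 scale. Zbed3 was the most abundant gene of the oocyte, with 24172 and 64679.9 TPM, and fell to 49.3 and 3.52 TPM (log2 difference -11.36 ± 1.31, adjusted p = 2.11e-05). A single-exon locus on its opposite strand, XLOC_004224, went from 7887 and 21095 TPM to 8.96 and 4.03 TPM, and without strand in the reads their signals cannot be told apart. Ooep was at 202 and 50.5 TPM in oocytes and at 69.1 and 54.4 TPM in blastocysts, and the libraries overlap (adjusted p = 0.425). Khdc3 rose, from 458 and 14.2 TPM, values far apart, to 1556 and 10578 TPM (log2 difference 5.60 ± 1.48, adjusted p = 0.00599) but the call was lost without oocyte replicate 2 (adjusted p = 0.107) and without blastocyst replicate 2 (adjusted p = 0.0840), and its transcripts overlap exons of a second annotated gene.

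Among 29 other maternal effect and oocyte-enriched genes 24 fell and 1 rose, with the lowest median of any list, -6.65. Bcl2l10, an oocyte member of the Bcl-2 family, had the largest fall of all called genes, from 16455 and 22401 TPM to 14.4 and 0.0917 TPM (log2 difference -12.19 ± 1.09, adjusted p = 5.74e-06). H1foo, the linker histone of the oocyte, was at 12322 and 12737 TPM in oocytes and 8.46 and 0.178 TPM in blastocysts (log2 difference -11.87). Every oocyte value lay above every blastocyst value for both. Tcl1, a coactivator of Akt kinase, fell by 9.70 on the log2 scale. The oocyte homeobox genes Obox1 and Obox2 fell by 9.36 and 9.83. Omt2a and Omt2b fell by 11.34 and 11.35, but they are near copies, and salmon can split shared reads between them. Dppa3 (Stella), which protects maternal DNA methylation, was not called: it was at 12586 and 3851 TPM in oocytes and 10428 and 1292 TPM in blastocysts, with overlapping libraries (adjusted p = 0.478). Trim28, a corepressor required at imprinted loci, was at 30.7 and 65.3 TPM and 144 and 81.9 TPM, also without a call (adjusted p = 0.153). The member that rose was Ube2a, a ubiquitin-conjugating enzyme, from 2.11 and 13.9 TPM to 60.2 and 56.4 TPM, a call lost without oocyte replicate 1 (adjusted p = 0.0580).

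Of 23 tested regulators of meiosis and metaphase arrest 10 fell and 5 rose (median -1.75), beside 19.6% and 35.0% of all genes. After median centring 13 fell and 3 rose, beside 30.1% and 23.9% of all genes. Among the members that fell were genes of the female germ line. Mos, the kinase that holds the oocyte at metaphase, went from 89.9 and 543 TPM to 0.571 and 0.0741 TPM, Fbxo43 (Emi2), which blocks the anaphase-promoting complex, from 88.4 and 215 TPM to 0.0569 and 0 TPM, and Wee2, the oocyte inhibitor of Cdk1, from 182 and 125 TPM to 0.243 and 0 TPM. The stages do not overlap for these genes, with log2 differences of -7.42, -7.08 and -7.09. Spin1, which binds the meiotic spindle and methylated histone H3, fell by 8.82 on the log2 scale. Genes that also serve mitosis were found on every side. Bub1b and Mad2l1 of the spindle checkpoint fell from 118 and 447 TPM to 19.9 and 3.88 TPM and from 816 and 773 TPM to 135 and 44.1 TPM (log2 differences -4.51 and -3.34). The call of Mad2l1 was lost without blastocyst replicate 2 (adjusted p = 0.0820). Cdc20 was at 1145 and 1153 TPM and 424 and 1403 TPM, Ccnb2 at 367 and 559.6 TPM and 256 and 463 TPM, and Plk1 at 28.4 and 292 TPM and 54.8 and 156 TPM, and none of these was called (adjusted p = 0.629, 0.666 and 0.993). Cdk1, the catalytic subunit that drives both divisions, rose from 0.30 and 0.704 TPM to 188 and 37.7 TPM (log2 difference 5.84 ± 0.89), and Cdkn1a (p21), a Cdk inhibitor, from 1.48 and 7.45 TPM to 267 and 597 TPM (6.45 ± 1.19). Without oocyte replicate 1, without blastocyst replicate 1 and in the fit on the 4 libraries, 3 members of the list were called higher in place of 5.

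Of the machinery that stores and removes maternal mRNA, 10 of 19 tested members fell and 2 rose (median -2.14), beside 19.6% and 35.0% of all genes. After median centring 10 fell and 1 rose, beside 30.1% and 23.9% of all genes. Btg4, the adaptor that brings the CCR4-NOT deadenylase to maternal mRNA, went from 3528 and 9909.6 TPM to 7.39 and 0.0908 TPM, and Cnot7, a catalytic subunit of that deadenylase, from 783 and 777 TPM to 38.7 and 76.1 TPM. Zar1, a binding protein of stored mRNA, went from 946 and 4016 TPM to 2.01 and 0 TPM, and Cpeb1, which controls cytoplasmic polyadenylation, from 33.9 and 191 TPM to 1.72 and 0.53 TPM. None of these overlapped between the stages, and the log2 differences were -10.93, -3.82, -10.14 and -5.33. Over the list 14 of 19 members did not overlap, near the 75.4% of all tested genes. Igf2bp2 and Ybx2, further mRNA-binding proteins, were at 24.3 and 49.5 TPM and 22 and 22 TPM in oocytes and at 32.9 and 33.9 TPM and 9.55 and 28 TPM in blastocysts, with adjusted p-values of 0.951 and 0.645. The members that rose were Pabpc1, the somatic poly(A)-binding protein, and Ddx6, an RNA helicase of storage granules (0.264 and 0 TPM to 7.13 and 2.32 TPM), of which Ddx6 lost its call without blastocyst replicate 1 (adjusted p = 0.0638), with the replicate number as a block on 4 libraries (adjusted p = 0.0751) and after median centring (adjusted p = 0.0610).

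In the trophectoderm list 15 of 17 tested genes rose and none fell, against 35.0% and 19.6% of all genes, with a median log2 difference of +5.63. Krt18 and Krt8, which pair as the keratin filament of simple epithelia, led it. Krt18 had the largest rise of all called genes, from 1.09 and 0.769 TPM to 5733 and 20177 TPM (log2 difference 12.45 ± 1.06, adjusted p = 4.89e-06), and Krt8 rose from 1.52 and 1.25 TPM to 3504 and 15040.4 TPM (11.57 ± 0.93). Both keratins were higher in blastocyst replicate 2 than in replicate 1, and both replicates lay above the oocytes. Cdx2, the transcription factor that specifies trophectoderm, was at 0 and 0.0532 TPM in oocytes and 46.7 and 119.6 TPM in blastocysts (6.21 ± 0.64), and Tead4, which acts upstream of it with Yap, was listed at 0 in both oocyte libraries and at 22.4 and 37.7 TPM in blastocysts. Gata3, another trophectoderm factor, was already present in oocytes, at 29.9 and 199 TPM, and rose to 784 and 1928 TPM (3.97 ± 1.06), a call lost without oocyte replicate 1 or blastocyst replicate 2 (adjusted p = 0.0863 and 0.0622). Tfap2c, at 11.1 and 60.8 TPM and 55 and 167 TPM, and Fgfr2, at 6.66 and 10.8 TPM and 40.1 and 22.2 TPM, were not called (adjusted p = 0.124 and 0.0623), although Tfap2c was without oocyte replicate 2 (adjusted p = 0.0376).

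The epithelium that seals the blastocoel appeared as a set of junction and channel genes. Of 24 tested genes 16 rose and none fell (median +4.33). The claudins Cldn4 and Cldn7 of the tight junction went from 0.874 and 8.91 TPM to 1626 and 4049.7 TPM and from 2.36 and 2.68 TPM to 245 and 493 TPM, and Epcam, an epithelial adhesion protein, from 2.94 and 1.78 TPM to 1141 and 3041 TPM. Their log2 differences were 9.22, 6.63 and 9.14, with no overlap between the stages. The gap junction gene Gja1 rose by 7.30, and Aqp3, a water and glycerol channel, by 6.55. A pair of adherens junction genes did not pass the test: Cdh1 (E-cadherin) was at 8.48 and 14.4 TPM and 63.4 and 13.3 TPM, and its partner Ctnnb1 (beta-catenin) at 49 and 109.5 TPM and 58.7 and 20.2 TPM (adjusted p = 0.221 and 0.236, and 0.0273 for Ctnnb1 after median centring). Both were thus present at both ends. With median centring, or without oocyte replicate 1, 1 member was called lower.

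Pluripotency genes rose in 15 of 20 cases and fell in none (median +4.67). Dppa5a, an RNA-binding protein of pluripotent cells, was the most abundant of them, from 32.2 and 1.96 TPM to 12292 and 4431 TPM (log2 difference 9.54 ± 1.08, adjusted p = 1.88e-05). Nanog, a factor of the epiblast, went from 0.891 and 0.0594 TPM to 73.7 and 30.9 TPM, and Sox2, the partner of Oct4, from 0.169 and 1.02 TPM to 13.2 and 40.4 TPM. The stages do not overlap for these genes, and the log2 differences were 5.11 and 3.98. Tdgf1, the Nodal coreceptor, was listed at 0 in both oocyte libraries and at 154 and 25.4 TPM in blastocysts. Pou5f1 (Oct4), in contrast, was at 37.1 and 104 TPM in oocytes and 206 and 199.7 TPM in blastocysts, without overlap but also without a call (log2 difference 1.69 ± 0.80, adjusted p = 0.0853). Without oocyte replicate 2 it was called higher (adjusted p = 0.0379). Sall4, at 259 and 79.7 TPM and 180.2 and 34.7 TPM, Stat3, at 241 and 284 TPM and 260.4 and 100.3 TPM, and Esrrb, at 1.79 and 5.45 TPM and 1.12 and 1.52 TPM, were other members without a call (adjusted p = 0.512, 0.541 and 0.376). After median centring 13 rose and 1 fell.

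Of 12 primitive endoderm genes 10 rose and none fell (median +3.52). Gata6, the first factor of this lineage, rose from 0.398 and 0.423 TPM to 54.2 and 43.2 TPM, and Sox17, which acts later, from 1.96 and 0.106 TPM to 15 and 37.8 TPM (log2 differences 5.13 and 3.78). Genes of the basement membrane that this tissue lays down also rose, among them Col4a2, from 0 and 0.718 TPM to 44.5 and 24 TPM, and Lama1, from 0.176 and 0.616 TPM to 33 and 9.67 TPM, with the collagen chaperone Serpinh1, from 0 and 0.514 TPM to 131 and 356 TPM. Gata4 was at 4.73 and 6.45 TPM in oocytes and 5.18 and 1.56 TPM in blastocysts, and Lamb1 at 136 and 168 TPM and 52.1 and 43.2 TPM (adjusted p = 0.373 and 0.120). After median centring 2 genes were called lower.

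The broadest rise was in the protein synthesis and energy machinery. Of 83 tested cytosolic ribosomal protein genes 79 rose, none fell and the median was +6.32, the highest of all lists. Their summed level was 3062 and 3513 TPM in the oocyte libraries and 105954 and 64793 TPM in the blastocyst libraries. Rpl18 went from 0.672 and 0.833 TPM to 1309.8 and 1267 TPM and Rps19 from 0.51 and 2.55 TPM to 2236 and 1145 TPM (log2 differences 9.52 ± 0.74 and 9.43 ± 0.74). Rpl12 was listed at 0 in both oocyte libraries and at 607 and 409 TPM in blastocysts. The 4 genes without a call were Rps27l, Rplp2, Rpl15 and Rps15a. Rps27l, a paralogue of Rps27 that p53 induces, was at 1179 and 2375 TPM in oocytes and 3907 and 1320.0 TPM in blastocysts (adjusted p = 0.688). Many of these genes have processed pseudogenes of near-identical sequence, which can share reads with them.

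Oxidative phosphorylation behaved alike, with 72 of 78 nuclear-encoded subunits higher, none lower and a median of +5.11. The summed level was 4147 and 6840 TPM in oocytes and 62274 and 72386 TPM in blastocysts. Uqcrc1, a core subunit of complex III, rose from 1.21 and 1.33 TPM to 1034 and 2996 TPM (log2 difference 9.60 ± 0.85, adjusted p = 5.71e-06), and Cyc1, the cytochrome of the same complex, from 3.8 and 2.9 TPM to 719 and 2411 TPM. Not every subunit was low in the oocyte: Cox8a of complex IV was at 1008 and 1349.9 TPM and then 1551 and 6023 TPM, and Atp5b, the catalytic beta subunit of ATP synthase, at 293 and 868 TPM and then 1140.4 and 2221 TPM, neither of them called (adjusted p = 0.174 and 0.101), although Atp5b was without oocyte replicate 2 (adjusted p = 0.0404). In the list of mitochondrial ribosomal proteins 53 of 78 members rose and 1 fell (median +3.32), beside 35.0% and 19.6% of all genes. After median centring 42 rose and 2 fell. Mrpl12 went from 0.336 and 2.51 TPM to 203 and 676 TPM. The list member that fell, Mrps36, went from 368 and 134 TPM to 60 and 32.7 TPM (adjusted p = 0.0248). That call was lost without oocyte replicate 1 and without blastocyst replicate 2 (log2 differences -1.57 and -1.87). Whether its product is part of the mitochondrial ribosome was not tested.

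Protein folding and turnover followed in part. The proteasome had 32 of 44 genes higher and none lower (median +3.66), and 2 lower without oocyte replicate 1. Psmc2, an ATPase of its base, went from 1.15 and 0.384 TPM to 515 and 67.3 TPM, while Psma7, a subunit of the core ring, stood at 1456 and 2827 TPM and 2273 and 2616 TPM (adjusted p = 0.810). The subunits of 1 complex thus began at very different levels. Of the 7 tested genes of the chaperonin CCT, which folds actin and tubulin, 6 rose (median +4.44), Cct4 from 5.19 and 18.3 TPM to 621 and 1563 TPM, and Cct8 was not called, at 116 and 471 TPM and 632 and 699.6 TPM (adjusted p = 0.141, and 0.0307 without oocyte replicate 2). Among heat shock chaperones 10 of 21 rose and 1 fell (median +2.57), beside 35.0% and 19.6% of all genes. After median centring 6 rose, near the 23.9% of all genes. Hspa8, the constitutive Hsp70, went from 7.24 and 17 TPM to 5718 and 1770.2 TPM (8.03 ± 0.83), and Hsf1, the heat shock transcription factor that oocytes need, fell from 80.8 and 219 TPM to 10.4 and 26.6 TPM, a call lost without blastocyst replicate 1 (adjusted p = 0.0540).

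Of 44 nucleolar ribosome biogenesis factors 24 rose and none fell (median +2.27), beside 35.0% and 19.6% of all genes. After median centring 19 rose, beside 23.9% of all genes. Nhp2, a protein of H/ACA RNPs, went from 0.843 and 2.31 TPM to 817 and 826 TPM. Ncl (nucleolin) was at 44.5 and 117 TPM and 227 and 101 TPM without a call (adjusted p = 0.254). Of 24 SR and Sm splicing proteins 10 rose and none fell (median +1.98), a share of rises near the 35.0% of all genes. Within the Sm ring Snrpb rose from 0.769 and 3.11 TPM to 405 and 428 TPM and Snrpd2 from 4.58 and 3.48 TPM to 449 and 469.6 TPM, whereas Snrpg was at 1223 and 537 TPM and 805 and 474 TPM and Snrpd1 at 143 and 83.9 TPM and 155 and 51.6 TPM (adjusted p = 0.685 and 0.771). Of 51 translation initiation factors 27 were higher and 9 lower (median +2.36), beside 35.0% and 19.6% of all genes, so the falls were near that share. After median centring 17 were higher and 11 lower, beside 23.9% and 30.1% of all genes. Eif4ebp1, a repressor of cap-dependent initiation, rose from 11.9 and 4.63 TPM to 665 and 1921 TPM. Without blastocyst replicate 2 and after median centring, 1 and 2 of the splicing proteins were called lower.

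**Figure D2:**
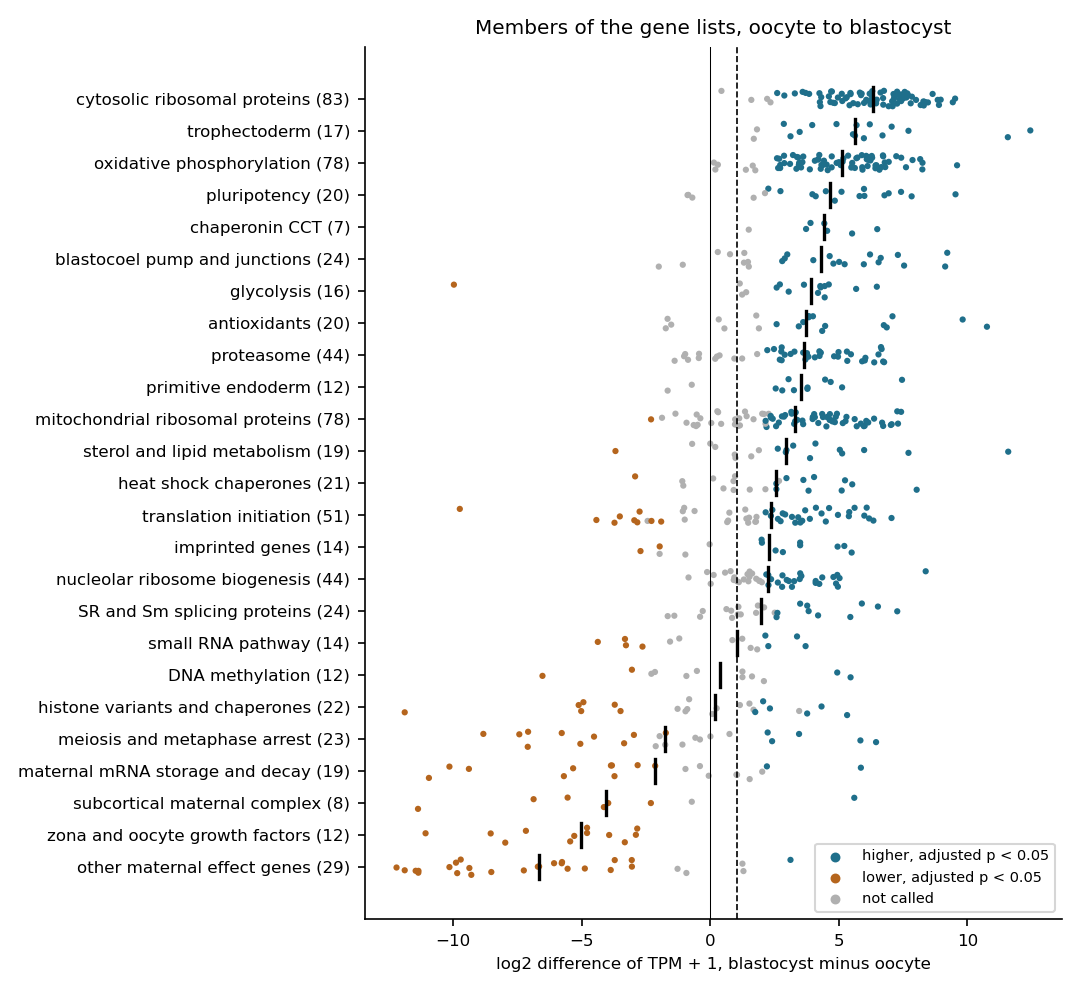
Log2 difference of TPM + 1, blastocyst minus oocyte (x axis), for each tested member (points) of the gene lists with 7 or more tested members, with the number tested after each name. Black bars mark the list medians and the dashed line the median of all genes (+1.04); the list medians run from -6.65 for the other maternal effect genes to +6.32 for the cytosolic ribosomal proteins.

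Metabolic genes changed in kind as well as in level. Of 16 tested glycolysis genes 12 rose and 1 fell (median +3.92). Slc2a3, the high-affinity glucose transporter of the embryo, rose from 1.16 and 0.0875 TPM to 169.9 and 109 TPM, and Hk2 (hexokinase) from 2.18 and 1.24 TPM to 68 and 38.9 TPM. Aldoa and Pkm, further along the pathway, reached 823 and 851 TPM and 193 and 374 TPM from 8.88 and 26.2 TPM and 4.89 and 35.9 TPM. The stages do not overlap for these genes, whose log2 differences were 6.48, 4.30, 5.68 and 4.19. The call of Pkm was lost without oocyte replicate 1 (adjusted p = 0.0670). The exception was lactate dehydrogenase, where Ldhb fell and Ldha rose. Slc2a1, the common glucose transporter, was at 4.64 and 22.3 TPM and 22 and 27.3 TPM without a call (adjusted p = 0.306).

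Of 19 sterol and lipid genes 11 rose and 1 fell (median +2.94), beside 35.0% and 19.6% of all genes. After median centring 8 rose and 2 fell, beside 23.9% and 30.1% of all genes. Fabp3, a fatty acid carrier, rose from 0.272 and 0.514 TPM to 7424 and 2461 TPM (log2 difference 11.59 ± 1.04, adjusted p = 5.80e-06), Plin2, a coat protein of lipid droplets, from 2.04 and 2.19 TPM to 376 and 103 TPM, and Scd1, which desaturates fatty acids, from 0.354 and 0.0764 TPM to 70.3 and 21.2 TPM. Several enzymes of sterol synthesis did not pass the test, such as Hmgcs1, at 7.46 and 30.3 TPM and 26.6 and 8.63 TPM, and Fdft1, at 24.6 and 71 TPM and 71.5 and 32.5 TPM (adjusted p = 0.997 and 0.834). Insig1, which holds the sterol sensor in the endoplasmic reticulum, fell from 698 and 235 TPM to 32.3 and 29.2 TPM, a call lost without oocyte replicate 1 (adjusted p = 0.0697). Antioxidant genes rose in 13 of 20 cases and fell in none (median +3.73), beside 35.0% and 19.6% of all genes. Without oocyte replicate 1, 1 was lower, and after median centring 12 were higher and 2 lower. The metallothioneins Mt1 and Mt2, which bind zinc and copper, led with 2.27 and 2.11 TPM and 0.631 and 0 TPM in oocytes and 6474 and 4733 TPM and 2905 and 456 TPM in blastocysts (10.76 and 9.82). Gpx1 and Gpx4, the cytosolic and the lipid peroxidase, rose by 6.87 and 7.09, and Prdx1, at 258 and 132 TPM and 715 and 103 TPM, was not called (adjusted p = 0.650).

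In several small sets of related genes, 1 member fell and another rose. These sets were chosen after their values had been seen, and each member named here as changed kept its call under every alternative in which it was tested. Ldhb, the lactate dehydrogenase subunit of oxidative tissue, went from 5008 and 1066 TPM to 1.74 and 0.964 TPM while Ldha, the subunit of glycolytic tissue, went from 0.876 and 1.83 TPM to 26.1 and 12.6 TPM (log2 differences -9.96 ± 1.01 and 3.05 ± 0.74, adjusted p = 9.86e-06 and 0.00362). The summed level was therefore much lower in blastocysts, although the form had changed. Among the cap-binding proteins, Eif4e3 went from 6376 and 4403 TPM to 5.58 and 4.9 TPM and the germ-line form Eif4e1b from 24.8 and 19.2 TPM to 1.69 and 0.496 TPM, Eif4e2 rose from 0.673 and 0.643 TPM to 208 and 52.3 TPM, and Eif4e itself, at 108 and 62.7 TPM and 117 and 14 TPM, was not called (adjusted p = 0.392).

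Pabpn1l, the poly(A)-binding protein of the oocyte, fell from 862 and 1226 TPM to 1.3 and 0.0406 TPM while Pabpc1 rose from 6.05 and 3.13 TPM to 492 and 198 TPM (-9.38 ± 0.80 and 5.86 ± 0.73). Aurkc, the Aurora kinase of meiotic chromosomes, fell from 229.8 and 129 TPM to 4.31 and 0.904 TPM and Aurkb, its mitotic counterpart, rose from 2.26 and 2.07 TPM to 33.5 and 34 TPM (-5.77 and 3.46). Every library of one stage lay on the same side of the other stage in these pairs. Of the TET enzymes that oxidise methylcytosine, Tet3 fell from 231 and 639 TPM to 3.02 and 3.4 TPM, Tet2 rose from 1.26 and 0.744 TPM to 84.4 and 42.7 TPM, and Tet1, at 2.68 and 3.33 TPM and 21.2 and 5.85 TPM, was not called (adjusted p = 0.0687, and 0.0178 without blastocyst replicate 2). Among chaperones that hand over histones H3 and H4, Asf1a fell from 5829 and 1775 TPM to 44.5 and 189.6 TPM and Asf1b from 779 and 1580.4 TPM to 68.3 and 18.2 TPM. Chaf1b, a subunit of the assembly factor CAF-1, rose from 0.614 and 1.02 TPM to 33 and 37.8 TPM, which did not bring it above both Asf1 genes in either blastocyst library. In the plot of related genes the lines of Pabpn1l and Pabpc1 cross by the 2-cell stage, and those of Ldhb and Ldha only between the 8-cell stage and the blastocyst.

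**Figure D3:**
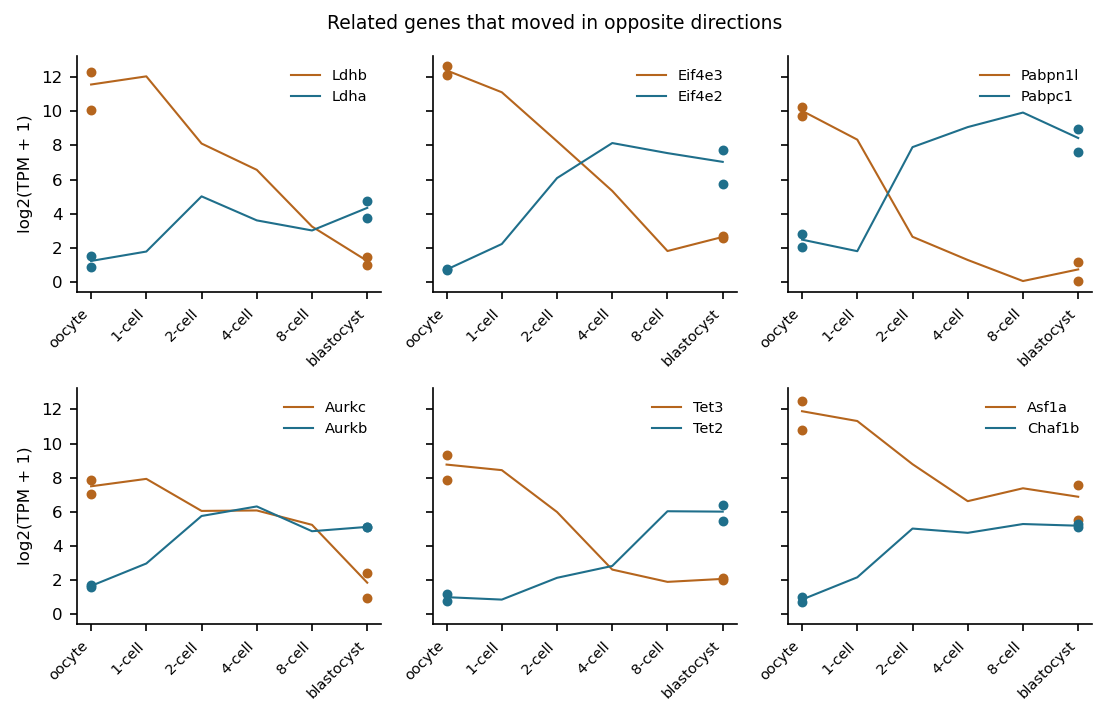
Log2(mean TPM + 1) of 2 libraries (y axis) at each stage from oocyte to blastocyst (x axis) for genes of related function. Each panel shows 2 genes of a set, with 1 line per gene, and not every gene of a set is drawn. In each panel 1 gene falls and 1 rises between the oocyte and the blastocyst. For Ldhb and Ldha the log2 differences of the fit, which averages log2(TPM + 1), were -9.96 and 3.05.

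Of 22 histone variants and chaperones 6 rose and 6 fell (median +0.17), near the 35.0% and 19.6% of all genes, with 3 rising after median centring, quantile normalization or weighting by stage. H2afz, a variant found at gene starts, rose from 56.6 and 98.9 TPM to 3485 and 2655 TPM, and H2afy (macroH2A) from 13.6 and 6.24 TPM to 113 and 173 TPM. Slbp, which binds the stem-loop of histone mRNA, fell from 6286 and 21095 TPM to 368 and 344 TPM, and Npm2, the oocyte nucleoplasmin, from 55.9 and 16.6 TPM to 1.84 and 1.07 TPM. H3f3b, a gene for the variant H3.3, was among the most abundant genes at both ends, with 10626 and 7989 TPM and 2977 and 8312 TPM (adjusted p = 0.439). Of 12 DNA methylation genes 2 rose (Tet2 and Tdg) and 2 fell (Tet3 and Zfp57), below and near the same shares, and the median was +0.37. Without oocyte replicate 1 and after median centring the list had 4 lower, and without blastocyst replicate 2 it had 4 higher. Dnmt1, the maintenance methyltransferase, was at 59.8 and 39.6 TPM and 22.4 and 50.7 TPM, Dnmt3b at 22.1 and 44 TPM and 248 and 74.7 TPM, and Uhrf1, which guides Dnmt1, at 66 and 1091 TPM and 68.2 and 43.6 TPM, and none was called (adjusted p = 0.536, 0.0687 and 0.0975). Without blastocyst replicate 2 Dnmt3b was called higher (adjusted p = 0.0453), and without oocyte replicate 1 Uhrf1 was called lower (adjusted p = 0.00655).

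Imprinted genes with a merged transcript were mostly higher at the end: 9 of 14 rose and 2 fell (median +2.28), with 5 rising without blastocyst replicate 1, and with 6 rising and 3 falling after median centring. Over all genes 35.0% rose and 19.6% fell, and after median centring 23.9% rose and 30.1% fell. Xist, the RNA that coats the inactive X chromosome, was at 0.185 and 0 TPM in oocytes and 155 and 14.6 TPM in blastocysts (5.50 ± 1.19), and Slc38a4, an amino acid transporter expressed from the paternal copy, at 0.028 and 0 TPM and 68 and 13.3 TPM (4.95 ± 0.73). The pools hold embryos of both sexes unless sorted, and the labels give none. Mest fell from 53 and 102 TPM to 9.6 and 11.3 TPM, a call lost without oocyte replicate 2 (adjusted p = 0.0521). With either oocyte library left out, 1 of the 2 falls was left. In the small RNA pathway 4 of 14 genes rose and 4 fell (median +1.06), near the shares over all genes, and after median centring 2 rose and 6 fell. Piwil1, a Piwi protein of the germ line, fell from 57.3 and 49.7 TPM to 1.57 and 1.7 TPM, Dicer1 from 191 and 58.9 TPM to 12.3 and 8.29 TPM and Ago3 from 44.3 and 97.9 TPM to 8.5 and 11.3 TPM, while Tarbp2, a partner of Dicer, rose from 1.06 and 4.1 TPM to 37.1 and 46.4 TPM. The call of Ago3 was lost without oocyte replicate 2 or blastocyst replicate 1 (adjusted p = 0.0724 and 0.0594). The rises also numbered 2 without oocyte replicate 1 or blastocyst replicate 1 and in the fit on 4 libraries.

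The genes of the 2-cell state, such as the Zscan4 cluster, were mostly under the limit of a mean TPM of 1 at both ends. Of the 4 tested, Eif1a rose from 0.0582 and 0.154 TPM to 166 and 47.5 TPM and Tcstv1 fell from 29.7 and 4.2 TPM to 1.01 and 0 TPM, a fall whose call was lost without oocyte replicate 1, blastocyst replicate 1 or blastocyst replicate 2 (adjusted p = 0.241, 0.0601 and 0.140). Of the sperm genes, Prm2 was at 3.4 and 4.16 TPM in oocytes and 0.132 and 0 TPM in blastocysts and Odf2 at 14.8 and 39.4 TPM and 22.1 and 16.8 TPM. The call of Prm2 as lower (adjusted p = 0.0485) was lost without any 1 of the 4 libraries, with adjusted p-values from 0.121 to 0.154. Of the cumulus and granulosa list only Nr5a2 was tested, a gene that embryos express as well, with 1.84 and 3.18 TPM and 39 and 12.8 TPM and a call as higher that was lost without oocyte replicate 1 or blastocyst replicate 1 (adjusted p = 0.0562 and 0.1004).

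Some genes were abundant at both stages. In 2102 genes all 4 libraries were at 10 TPM or more, and 629 of these were called, beside 54.6% of all tested genes. A level required in all 4 libraries leaves out most genes with large changes. A low number of calls therefore follows in part from the rule, here and at the higher limit. At 1000 TPM or more in all 4 libraries were 14 genes, of which Oaz1, the antizyme that restrains polyamine synthesis, was the only one called: it fell from 15756 and 6146 TPM to 1033 and 2358 TPM (adjusted p = 0.0257), and the call was lost in 5 of 16 alternatives, those without oocyte replicate 1 and without blastocyst replicate 1 among them (adjusted p = 0.160 and 0.158). Hprt, a purine salvage enzyme, was at 9324 and 1802 TPM in oocytes and 2919.7 and 5329 TPM in blastocysts. Eif5a, a translation factor, was at 1909 and 4092 TPM and 6108 and 10446 TPM, and Ubb, a ubiquitin gene, at 5691 and 1745 TPM and 16673 and 9528 TPM. Their adjusted p-values were 0.969, 0.207 and 0.0790. With 2 libraries per stage a missed threshold does not show that levels were alike.

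By gene type, the 8429 protein-coding genes had 3243 higher and 1522 lower (median +1.09), close to the whole. Annotated lincRNAs went the other way: of 260 tested, 124 fell (47.7%) and 48 rose (18.5%), with a median of -1.91. The largest fall among them was that of C86187, from 4820.3 and 13059 TPM to 11 and 0.461 TPM, which has an unannotated locus on its opposite strand. Of 179 processed pseudogenes 91 rose and 23 fell (median +2.27). Among the largest rises were Rps2-ps10, from 0 and 0 TPM to 819 and 2118 TPM, and Rps2-ps13, from 0 and 0.216 TPM to 690.1 and 1460.1 TPM, copies of a ribosomal protein gene whose reads cannot be told apart with certainty from those of the parent. The 2469 loci without an annotated gene on their strand had 614 higher and 532 lower (median +1.07).

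The stages between give the time course of the net change. For each called gene with a difference of at least 4-fold, the first stage was found at which the mean log2 level had passed the midpoint between oocyte and blastocyst. Of 3833 such genes that rose, 60.9% had passed it first at the 2-cell stage, and 8.64% had done so in 1-cell embryos. A further 15.2% followed as 4-cell embryos, 9.31% as 8-cell embryos and 5.97% only at the blastocyst. Of 2166 genes that fell, 26.2% passed it as 2-cell, 39.0% as 4-cell and 25.8% as 8-cell embryos. By this measure the falls were spread later than the rises. On a log2 scale a large rise passes its midpoint at a small part of its final TPM. A large fall passes it only after most of its TPM is gone. The measure therefore cannot tell whether falls came later than rises. The oocyte and blastocyst libraries define the midpoint, so these shares are a description. A net change also hides passage through a peak: in 1198 of the genes that rose (31.3%) and 544 of those that fell (25.1%), a stage between stood more than 1 log2 unit above both ends. The 2-cell libraries differed most between replicates, with a median gap of 1.48 log2 units against 0.289 at the 4-cell stage.

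The lists can be read beside these shares of all genes. Of 79 ribosomal protein genes that rose, 67 had passed the midpoint by the 2-cell stage and the other 12 by the 4-cell stage. Of 15 pluripotency genes 10 passed it at the 2-cell stage, a share near that of all genes that rose. The trophectoderm genes were split, 5 of 15 at the 2-cell stage, 2 at the 8-cell stage and 8 only at the blastocyst, and of 10 primitive endoderm genes 4 passed at the 8-cell stage and 4 at the blastocyst. Among the genes that fell, 6 of 12 zona and growth factor genes passed their midpoint as 8-cell embryos and 4 as 4-cell embryos. Of the 24 other maternal effect genes, 9 passed as 2-cell and 9 as 8-cell embryos. The 9 oocyte markers together stood at 29.9% and 28.5% of their oocyte mean in 1-cell embryos, 1.30% and 12.2% in 2-cell embryos and 0.288% and 0.231% in 8-cell embryos. In blastocysts they stood at 0.754% and 0.497%. Gdf9 made up most of the sum in oocytes, and Ooep, which was not called, most of it in blastocysts. The percents therefore do not follow all 9 markers alike.

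**Figure D4:**
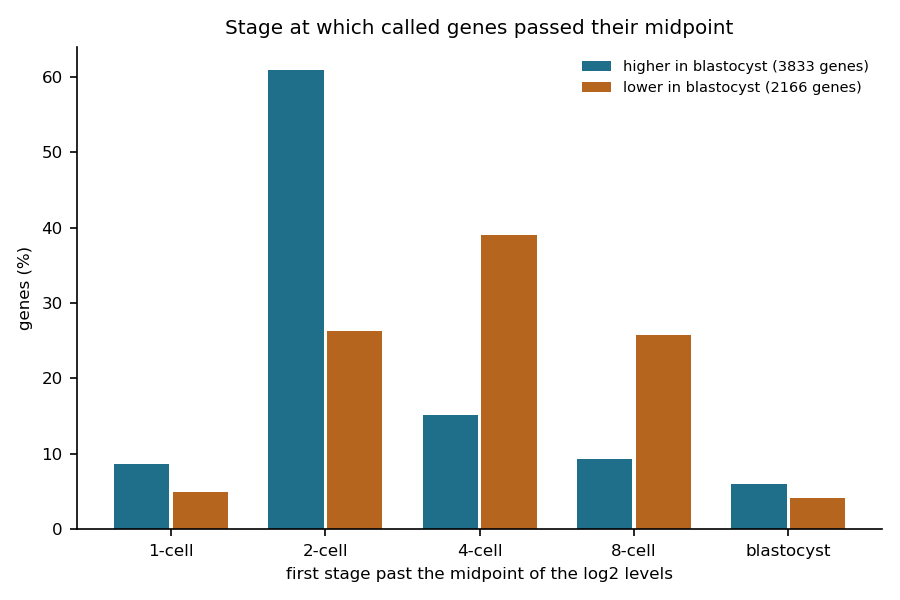
Share of genes (y axis, percent) by the first stage at which the mean log2 level passed the midpoint between oocyte and blastocyst (x axis), for 3833 genes higher and 2166 genes lower in blastocysts by at least 4-fold. Rises are concentrated at the 2-cell stage (60.9%), falls at the 4-cell stage (39.0%).

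Within genes expressed at both ends, the question was whether the same isoform was used. The share of a transcript is its TPM as a percent of the TPM of its gene. It was compared for 3612 transcripts of 1450 genes with at least 5 TPM in each of the 4 libraries, by limma on the log2 ratio of the transcript to the rest of its gene. At an adjusted p under 0.05 and a share change over 10 points, 148 transcripts in 100 genes were called, 4.10% of those tested, 68 of them higher and 80 lower in blastocysts. In 44 genes 1 transcript rose and another fell. These calls rest on all 4 libraries: without any 1 of them, and with the replicate number as a block, no transcript passed by limma, and the smallest adjusted p was 0.0664 with the block and 0.171 to 0.208 with a library left out, while 611 to 716 transcripts without a library and 908 with the block had an unadjusted p under 0.05. A fit on the 12 libraries from oocyte to blastocyst called 703 transcripts and 277 genes, which held 147 of the 148 transcripts and 43 of the 44 genes.

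The 44 genes differed mainly at their ends. The starts of both isoforms lay more than 300 bases apart in 17 genes, the 3′ ends in 10, both in 7, and in 10 only the splicing between differed. Where the starts differed, in 24 genes, the gap ranged from 1102 to 156391 bases with a median of 13654, and the oocyte start was upstream in 11 and downstream in 13. The intron chain of the oocyte isoform was in the annotation in 23 genes and that of the blastocyst isoform in 30. The total of the gene was not called in 23 of the 44, was lower in 15 and was higher in 6.

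The long-read pools, 1 per stage, hold a second reading of structure. Of 77 multi-exon transcripts whose share fell, the intron chain was found in the oocyte pool for 47 and in the blastocyst pool for 8. Of 63 whose share rose, it was found in the oocyte pool for 8 and in the blastocyst pool for 32. Over all 3195 multi-exon transcripts tested, 1010 were in the oocyte pool and 1040 in the blastocyst pool. Each pool mixed cDNA of the same batches as the short-read libraries, so the 2 kinds of reads share their source.

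Grn, which encodes progranulin, a secreted protein that works in lysosomes, changed its start completely at nearly the same level. Its gene TPM was 49.8 and 109.6 in oocytes and 63.8 and 74.6 in blastocysts. The oocyte isoform, which begins 12384 bases upstream of the annotated Grn-201, made up 100% and 99.3% of the gene in oocytes and 0% and 0% in blastocysts, where Grn-201 made up the whole (log2 ratio difference -11.95 ± 0.62, adjusted p = 0.0185). Vdac2, a channel of the outer mitochondrial membrane, likewise used a start 6029 bases upstream in oocytes, with 97.9% and 98% of the gene, and 1.19% and 0% in blastocysts. In both genes the shares of a stage were nearly equal between its libraries. Med27, a subunit of the Mediator of transcription, went the other way: a start 31013 bases downstream of Med27-201 gave 63.6% and 71% of a gene at 930 and 3366 TPM in oocytes, and Med27-201 gave 91.3% and 98.5% of a gene at 42.3 and 22.0 TPM in blastocysts.

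Mkln1 (muskelin, a subunit of an E3 ubiquitin ligase) used a start 31846 bases downstream of Mkln1-201 in oocytes, which gave 99.4% and 90.4% of the gene, and Mkln1-201 in blastocysts, with 97.2% and 100%. Mapre2, which binds the growing ends of microtubules, used Mapre2-202 in oocytes (86.3% and 99.3%) and Mapre2-201, whose start lies 50297 bases downstream, in blastocysts (93.1% and 95.2%). The libraries of a stage lay on the same side in both genes. Fbxw18, an F-box protein, was annotated as Fbxw18-201 in oocytes (88.9% and 86.5%), while in blastocysts an isoform with a start 156391 bases upstream gave 99.5% and 100% of the gene, whose TPM was 116 and 31.8 in oocytes and 7.02 and 5.69 in blastocysts. Fbxw genes lie there as a cluster of similar copies, which can share reads. The intron chain of the upstream isoform was found in the oocyte long-read pool and not in the blastocyst pool. For Dnajc14, a J-domain protein, the transcripts overlap more than 1 annotated gene, and the oocyte isoform went from 59.9% and 67.6% to 0.149% and 0%.

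Other changes kept the start. Me1 (cytosolic malic enzyme) used Me1-202 for 80.6% and 84.4% of its RNA in oocytes and an unannotated chain with the same start and end for 100% and 100% in blastocysts, at gene levels of 31.9 and 14.3 in oocytes and 16.6 and 13.2 in blastocysts. Riok1, a kinase in the maturation of the small ribosomal subunit, used a chain with 18 exons in oocytes (93.6% and 93.8%) and Riok1-201 with 17 exons in blastocysts (88.6% and 96.2%). For these 12 genes with the largest change of share, the adjusted p of the oocyte isoform was between 0.0185 and 0.0464. Among the 12, the chain of the blastocyst isoform was in the blastocyst long-read pool only for Grn, Med27, Arpc3, Mapre2 and Riok1. The chain of the oocyte isoform was in the oocyte pool for all but Mapre2 and Anapc7.

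**Figure D5:**
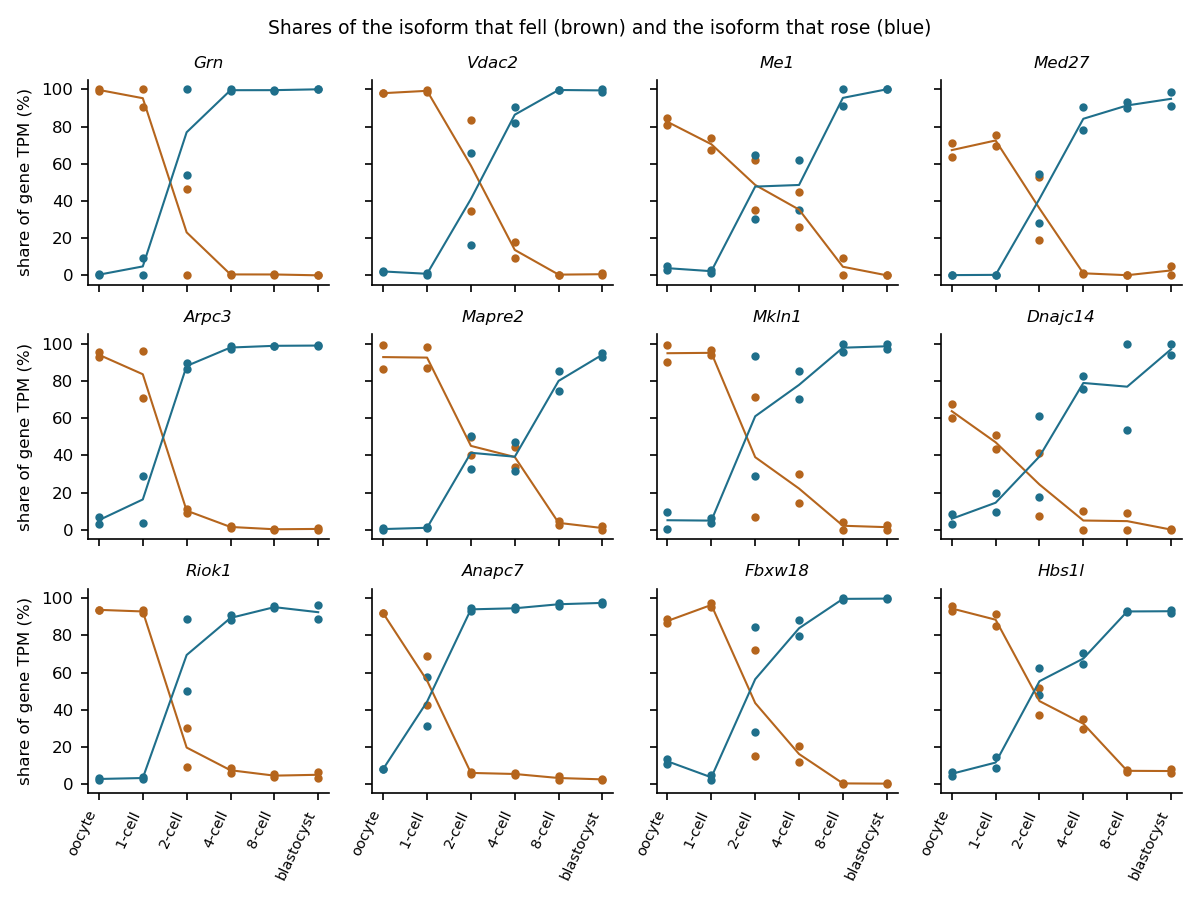
Share of the gene's TPM (y axis, percent) of the isoform that fell (brown) and the isoform that rose (blue) at each stage from oocyte to blastocyst (x axis), for the 12 genes with the largest change of share. Points are the 2 libraries of a stage and lines join their means; in Grn the oocyte isoform goes from 100% and 99.3% to 0% in both blastocyst libraries.

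For 11 of the 44 genes both isoforms matched annotated coding transcripts and their coding sequences were compared (GENCODE vM21, mm10). Mapre2 and the genes whose transcripts overlap more than 1 annotated gene were left out beforehand. The 11 are therefore not a full count of such genes. The first coding bases differed in 2 pairs, the last coding bases in 7, and 2 pairs were identical. The ends of the sequences are shown because they are where the proteins part, with capitals for bases that the other isoform does not share. Arpc3, a subunit of the Arp2/3 complex that nucleates branched actin, encodes 161 residues as Arpc3-204, the oocyte isoform (95.4% and 92.7% in oocytes, 0% and 0.863% in blastocysts), and 178 residues as Arpc3-202, the blastocyst isoform, whose start lies 8492 bases upstream. Their first 60 coding bases lie across exons of chr5:122400408-122401651 and chr5:122391992-122396870, both on the plus strand.
Arpc3-204, oocyte: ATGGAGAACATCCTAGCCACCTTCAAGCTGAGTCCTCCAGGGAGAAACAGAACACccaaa
Arpc3-202, blastocyst: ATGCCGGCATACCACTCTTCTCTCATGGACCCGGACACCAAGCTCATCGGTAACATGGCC

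Tsc22d1, a leucine zipper protein, had its oocyte isoform Tsc22d1-203, with 107 residues, at 62.9% and 91.9% of the gene in oocytes and 2.26% and 1.06% in blastocysts, where Tsc22d1-201, with 143 residues, gave 65.7% and 91.9%. The first 60 coding bases lie at chr14:76488659-76505291, across exons, and at chr14:76504717-76504776, on the plus strand. They part over the first exon only, and 307 coding bases at the 3′ end are shared.
Tsc22d1-203, oocyte: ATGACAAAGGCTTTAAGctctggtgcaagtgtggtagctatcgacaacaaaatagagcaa
Tsc22d1-201, blastocyst: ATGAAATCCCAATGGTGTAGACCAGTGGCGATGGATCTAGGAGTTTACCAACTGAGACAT

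Anapc7, a subunit of the anaphase-promoting complex, showed the opposite case, a common start with another end. Anapc7-202 stops 4 bases after the last shared base and encodes 503 residues. It gave 91.9% and 91.8% of the gene in oocytes, and Anapc7-201 with 565 residues gave 97% and 97.9% in blastocysts, at gene levels of 9.32 and 11.8 in oocytes and 18.5 and 17.6 in blastocysts. The last 60 coding bases lie at chr5:122441385-122441444 and chr5:122443934-122443993, on the plus strand.
Anapc7-202, oocyte: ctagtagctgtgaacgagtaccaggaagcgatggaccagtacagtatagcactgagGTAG
Anapc7-201, blastocyst: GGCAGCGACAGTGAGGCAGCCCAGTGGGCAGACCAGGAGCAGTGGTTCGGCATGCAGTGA

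The long form of Hbs1l encodes a GTPase that rescues stalled ribosomes. Hbs1l-203, a 5-exon form that ends 57691 bases before the long one, gave 93.3% and 95.6% of the gene in oocytes and 6.21% and 7.88% in blastocysts, and Hbs1l-209, with 18 exons, gave 93.8% and 92.1%. The encoded proteins have 612 and 682 residues. Of 1839 and 2049 coding bases they share only the first 418, so the role of the long form cannot be carried over to the short one. Vamp4, a SNARE of the trans-Golgi network, kept a length of 141 residues in both forms and changed its last bases (89.8% and 91.6% of the gene as Vamp4-203 in oocytes, 81.6% and 77.6% as Vamp4-204 in blastocysts). The last 60 coding bases of Hbs1l lie at chr10:21310460-21310519 and, across exons, at chr10:21367739-21368300, and those of Vamp4, across exons, at chr1:162592647-162597077 and chr1:162592647-162594574, all on the plus strand.
Hbs1l-203, oocyte: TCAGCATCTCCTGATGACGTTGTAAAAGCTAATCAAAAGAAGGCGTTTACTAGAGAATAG
Hbs1l-209, blastocyst: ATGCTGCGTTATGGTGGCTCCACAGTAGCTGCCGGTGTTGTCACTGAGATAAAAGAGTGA
Vamp4-203, oocyte: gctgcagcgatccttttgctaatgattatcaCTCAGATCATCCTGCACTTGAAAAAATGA
Vamp4-204, blastocyst: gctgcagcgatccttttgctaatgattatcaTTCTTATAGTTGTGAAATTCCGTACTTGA

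The base composition of the start regions could be read for few genes. RefSeq promoters (GRCm38.p6, the assembly of mm10) were looked up for 23 of the 24 genes with starts apart, with Mapre2 left out. Among the 23, only Spin1 and Tsc22d1 had an entry at both starts. In Spin1 the oocyte start gave 99.7% and 99% of the gene in oocytes and 26.9% and 0% in blastocysts, and the blastocyst start 73.1% and 100% in blastocysts. The 100 bases before each start are shown with CG dinucleotides in capitals, at chr13:51132697-51132796 and chr13:51100780-51100879 for Spin1 and at chr14:76488336-76488435 and chr14:76504410-76504509 for Tsc22d1, all on the plus strand.
Spin1, oocyte start: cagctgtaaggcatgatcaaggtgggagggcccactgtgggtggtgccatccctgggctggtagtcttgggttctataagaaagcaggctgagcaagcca
Spin1, blastocyst start: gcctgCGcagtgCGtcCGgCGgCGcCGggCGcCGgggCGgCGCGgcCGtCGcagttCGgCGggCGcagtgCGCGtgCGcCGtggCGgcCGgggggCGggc
Tsc22d1, oocyte start: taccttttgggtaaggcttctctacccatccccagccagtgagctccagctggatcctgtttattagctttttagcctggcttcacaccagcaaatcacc
Tsc22d1, blastocyst start: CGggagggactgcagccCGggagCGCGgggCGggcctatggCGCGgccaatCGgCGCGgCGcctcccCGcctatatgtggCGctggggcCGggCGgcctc

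The oocyte starts of Spin1 and Tsc22d1 had 0 CG in this window, and the blastocyst starts 23 and 15. Among the 32851 RefSeq windows of the same length the median was 3, 20.7% held none and 5.36% held 15 or more. With entries for 1 start included, 10 blastocyst starts held 5 to 23 CG (median 10.5) and 4 oocyte starts 0 to 17 (median 1.5), too few to compare. The oocyte start with 17 was that of Dlgap4, a scaffold protein.

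Counting genes by their most abundant isoform gave a looser view. In 908 of the 1450 genes the leading isoform was the same within both pairs of libraries, and in 168 of these (18.5%) it was another one in blastocysts than in oocytes, 33 of the 44 genes above among them. The leader already differed between the 2 oocyte libraries in 21.2% of the 1450 genes and between the 2 blastocyst libraries in 23.9%.

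Dicer1 and Dnmt1 are known for oocyte-specific start sites in the mouse. For Dicer1 the merged transcripts are pieces of the gene. A 3-exon transcript at chr12:104722073-104727406, on the minus strand, was at 147 and 37.9 TPM in oocytes and listed at 0 in both blastocyst libraries, with its intron chain in the oocyte pool and not in the blastocyst pool. A second 3-exon form ending at the same base was at 28.0 and 13.7 TPM and then 5.59 and 7.23 TPM. The fall of the gene as a whole was mainly that of the first form. For Dnmt1 a pair of 10-exon pieces at chr9:20932123-20959871, on the minus strand, were at 24.3 and 5.11 TPM and at 15.9 and 3.58 TPM in oocytes, and at 2.24 and 1.20 TPM and at 2.27 and 0.875 TPM in blastocysts. A 9-exon piece further downstream was at 12.8 and 20.3 TPM and then 13.0 and 45.2 TPM. None of the 4 pieces had its chain in either pool, so the start in use could not be read from these transcripts.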

How the data were processed

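Pooled oocytes and embryos were measured by short reads (2 libraries per stage) and by long reads (1 pool of 2 batches per stage). The authors quantified the short reads over the 22612 merged long-read transcripts and deposited the values as TPM. Exon coordinates of the merged transcripts and of each pool were deposited as text. The submitters' processing notes name GSNAP, STAR, Cufflinks and Salmon and the build mm10, with no versions. TPM was used as deposited, and no read depth can be had from it.

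Transcripts were assigned to GENCODE vM21 genes by the most same-strand exon overlap (954 overlapped exons of several genes) or kept as their own locus, and TPM was summed per gene. Genes with a mean of at least 1 TPM over the 4 libraries were tested for blastocyst minus oocyte with limma 3.58.1 in R 4.3.3 (linear fit, contrast and moderation with a trend). The values were log2(TPM + 1) and the fit held 12 libraries, 2 for each stage other than sperm, with stage as the term. The p-values were adjusted by Benjamini-Hochberg over all tested genes, and a gene was called at an adjusted p under 0.05. Shares were tested with limma on the 4 libraries, with a pseudocount of 1, for transcripts with a mean share of at least 5%. Tables were made with Python 3.11.15 and pandas 2.3.3. The steps were tested on simulated data.

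Samples were grouped by the stage in their titles. The replicate numbers were not taken as pairs of the stages. The correlation of the oocyte and blastocyst deviations between replicates was 0.09. Over all pairs of stages in the fit it ran from -0.51 (2-cell with blastocyst) to 0.47 (8-cell with blastocyst). Whether libraries of the same number share a batch cannot be told from these values. For the 8-cell libraries the labels number the replicates in opposite ways, and the title was followed. The 29 gene lists (819 members, 707 tested), the markers and the tests were chosen with earlier results of these data known. Named are list members, the 15 largest rises and 15 largest falls among called genes without overlap, the 10 most abundant genes per stage and the 12 genes with the largest change of share. Alternatives were 16 for genes and 11 for shares. Sperm, the other long-read pools and the TPM over each stage's own transcripts were not used here, and some list members are not reported here.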

Additional observations from a re-analysis of the deposited data

How the results depend on the processing

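The counts of genes called kept their order of size in each leave-one-out fit: 3033 to 4145 genes were higher and 1690 to 2056 lower. With the replicate number as a block, 3881 were higher and 2147 lower over 12 libraries, and 3627 and 2002 over 4, and the block changed the side of the threshold for none of the genes named in the report other than Ddx6, Mrps36, Prm2 and Ubb. The fit on the 4 libraries alone called 3542 higher and 1937 lower. With the spread weighted by stage the counts were 3536 and 1960. Both were below the 4085 and 2285 of the shared spread. Median centring moved the lower calls to 3513, against 2285. The calls of shares were the least stable. Against 148 transcripts and 44 genes with opposite changes, the fit on 12 libraries gave 703 and 277, a minimum gene TPM of 1 gave 422 and 147, multi-exon transcripts alone gave 273 and 97, and a pseudocount of 0.1 gave 221 and 72 genes. The replicate block on 4 libraries gave 0 and 0, and leaving out 1 library gave 0 to 0 for both, by limma, with 908 and 611 to 716 transcripts at an unadjusted p under 0.05. Fewer residual degrees of freedom are left in these fits by their construction. Genes with another leading isoform numbered 293 at a minimum gene TPM of 1, against 168. Among named genes, those that turned sign were not called in any fit where they did. With 1 library left out the log2 difference ran, from lowest to highest, as Ccnb2 -0.82 to 0.031, Cdc20 -1.44 to 0.29, Dnmt1 -1.08 to 0.057, Dppa3 -2.43 to 0.58, Eif4e -2.47 to 0.50, Fdft1 -0.55 to 0.95, Grn -0.66 to 0.46, Hmgcs1 -0.94 to 0.95, Hprt -1.24 to 1.13, Igf2bp2 -0.55 to 0.45, Odf2 -0.99 to 0.36, Ooep -1.70 to 0.28, Plk1 -1.65 to 1.67, Prdx1 -0.84 to 1.95, Psma7 -0.21 to 0.74, Rps27l -0.34 to 1.22, Sall4 -2.02 to 0.32, Snrpd1 -1.07 to 0.49, Snrpg -0.98 to 0.20, Ybx2 -1.13 to 0.33. After median centring it was Fdft1 -0.81, Hmgcs1 -1.01, Plk1 -1.0, Prdx1 -0.46, Psma7 -0.75, Rps27l -0.57, and after quantile normalization Fdft1 -0.16, Hmgcs1 -0.58, Hprt 0.17, Plk1 -0.27. TPM gives no depth, so what depth limits could not be computed.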
